A study of Mus musculus with 11 samples.

Results

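The surface markers and costimulatory receptors examined here are 10 genes that immunologists use to stage developing thymocytes or to follow their capacity for costimulation: *Cd28* and *Cd27* (costimulatory receptors), *Cd5* and *Cd6* (scavenger receptor cysteine-rich receptors), *Cd2* and *Mpzl2* (adhesion receptors of the immunoglobulin superfamily), *Thy1* and *Cd24a* (lipid-anchored surface glycoproteins), *Cd44* (the hyaluronan receptor) and *Cd69* (an early activation antigen). They are 10 of the 35975 genes with a transcript in the deposited files, and all 10 passed the filter on low counts, which left 13780 genes to test.

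Double negative (DN) thymocytes carry neither CD4 nor CD8. Within this compartment CD44 and CD25 mark the passage from DN2, where commitment to the T lineage is completed, to DN3, where the T cell receptor beta chain is rearranged and tested in the pre-T cell receptor. CD28 and CD27 deliver costimulatory signals in mature T cells, and both are also used to separate DN3 cells before and after this beta selection. CD5 and CD6 dampen antigen receptor signalling, and CD5 density on thymocytes follows the strength of that signalling.

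The 11 RNA-seq libraries came from thymocytes of mice labelled C57BL/6J, sorted as DN2 or DN3 by flow cytometry on CD44 and CD25 after depletion of CD4 and CD8 bearing cells. There were 3 DN2 and 3 DN3 libraries from WT mice, and 2 DN2 and 3 DN3 libraries from Arpp21-/- mice. Arpp21 encodes an RNA-binding protein, and the Arpp21-/- line, germline and present in every cell, was made in C57BL/6N embryos by excising a single exon with a pair of guide RNAs so that the long isoform is lost, while a short isoform remains. The labels give no age, sex or litter, and they do not say whether the libraries of a group came from separate animals, so p-values measure the spread between these libraries, which may be technical. Because CD44 was part of the gate, the difference in *Cd44* between stages was set by the sort and is described here as a check, not as a finding.

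Estimated counts summed to between 14531762 and 63109504 per library, with a median of 21501831. Levels are given as CPM, estimated counts relative to the library total after trimmed-mean (TMM) scaling, and as TPM, which also divides by transcript length, wherever genes are set beside each other. *Arpp21* itself was at 183, 125 and 136 CPM in DN2 WT and 86.9 and 28.5 CPM in DN2 Arpp21-/-. In DN3 it was at 386, 336 and 312 CPM in the WT libraries, against 335, 221 and 142 CPM in the Arpp21-/- ones. Both DN2 Arpp21-/- libraries were below all DN2 WT libraries, whereas the DN3 groups overlapped, and the sum over a gene cannot see the loss of 1 exon. 2 libraries stood apart from their group, DN2 Arpp21-/- replicate 2, the deepest, and DN3 Arpp21-/- replicate 3, the shallowest. Of all genes compared, 79.7% and 80.4% lay outside the WT range in these libraries, against 35.9% to 51.7% in the other Arpp21-/- libraries. In DN2 Arpp21-/- replicate 2 genes with transcripts under 1500 bases had a median log2 ratio to the WT mean of 1.46 and those above 3000 bases one of -1.43, and in DN3 Arpp21-/- replicate 3 these medians were 0.70 and -0.72. Medians for the other Arpp21-/- libraries lay between -0.09 and 0.05. For the 10 genes the Arpp21-/- differences are given with and without these libraries.

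The labelled cell type was checked on marker genes. The 6 DN markers (*Ptcra*, *Il2ra*, *Kit*, *Bcl11b*, *Tcf7* and *Il7r*), all of them found, summed to 2119 to 3762 CPM in 9 libraries, to 1842 CPM in DN3 Arpp21-/- replicate 3 and to 312 CPM in DN2 Arpp21-/- replicate 2. *Il2ra* encodes CD25, which was part of the gate, so this sum was in part set by the sort. *Il2ra* was at 1038 to 1671 CPM in DN2 WT and 1081 to 1678 CPM in DN3 WT. In DN2 Arpp21-/- replicate 2 it was at 144 CPM and in DN3 Arpp21-/- replicate 3 at 527 CPM. The other Arpp21-/- libraries held it at 1166 to 1611 CPM. The sum also joins genes that went opposite ways between the stages. *Ptcra* was at 1.000 to 2.96 CPM in DN2 WT and 365 to 436 CPM in DN3 WT. *Kit* was at 446 to 512 CPM in DN2 WT and 60.1 to 97.3 CPM in DN3 WT. In Arpp21-/- replicates 1 and 2 of DN2 *Kit* was at 553 and 66.6 CPM. The 3 DN3 Arpp21-/- libraries held *Kit* at 73.6, 61.2 and 24.5 CPM. The 4 double positive markers summed to at most 28.1 CPM. Of 5 B cell markers, *Pax5* was at 0 in every library, and *Cd79b* made up nearly all of the 38.6 to 71.9 CPM of the list. The 7 myeloid markers summed to 114 to 159 CPM in DN2 WT to 29.9 to 36.8 CPM in DN3 WT, to 134 and 357 CPM in DN2 Arpp21-/- and to 34.7 to 47.6 CPM in DN3 Arpp21-/-, with *Lyz2* and *Tyrobp* leading in DN2, *Lyz2* alone in DN3, and *Csf1r* at no more than 4.14 CPM in any library. The 4 NK cell markers summed to 304 to 338 CPM in DN2 WT, 97.3 to 131 CPM in DN3 WT and 1652 CPM in DN2 Arpp21-/- replicate 2, nearly all of it *Nkg7*, while *Ncr1* stayed at or below 0.0456 CPM. Markers of erythroid cells summed to 19.8 to 102 CPM in 10 libraries and to 246 CPM in DN2 Arpp21-/- replicate 2, those of gamma delta T cells (3 of 4 found) to 139 to 294 CPM, and those of dendritic cells to 2.18 to 23.4 CPM in 10 libraries, with DN2 WT replicate 1 higher. Of the 4 thymic epithelium markers, *Epcam* was at 2.53 to 9.77 CPM in DN2 and 23.5 to 107 CPM in DN3, and the others, *Foxn1* among them, stayed at or below 0.301 CPM. The part of these marker levels in the results below was not tested.

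Between the stages, in WT thymocytes, 2 of the 10 genes rose (*Cd28* and *Thy1*) and 1 fell (*Cd44*, the gate gene) at an adjusted p under 0.05 in edgeR's quasi-likelihood test over all 13780 genes. In the same comparison 1.86% of all genes were called higher in DN3 and 2.22% lower. All 3 DN3 WT libraries exceeded all 3 DN2 WT libraries in 6 of the genes (*Cd24a*, *Cd27*, *Cd28*, *Cd2*, *Thy1* and *Mpzl2*) and fell short of them in 1 (*Cd44*), where 17.5% of all genes lay fully higher and 17.3% fully lower. The median log2 fold change was 0.36 over the 10 genes and 0.01 over all genes. In sorted bulk samples, fewer cells with a transcript and less of it per cell cannot be told apart. Between the genotypes none of the 10 was called in DN3, in DN2 or in the interaction of stage and genotype.

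**Figure D1:**
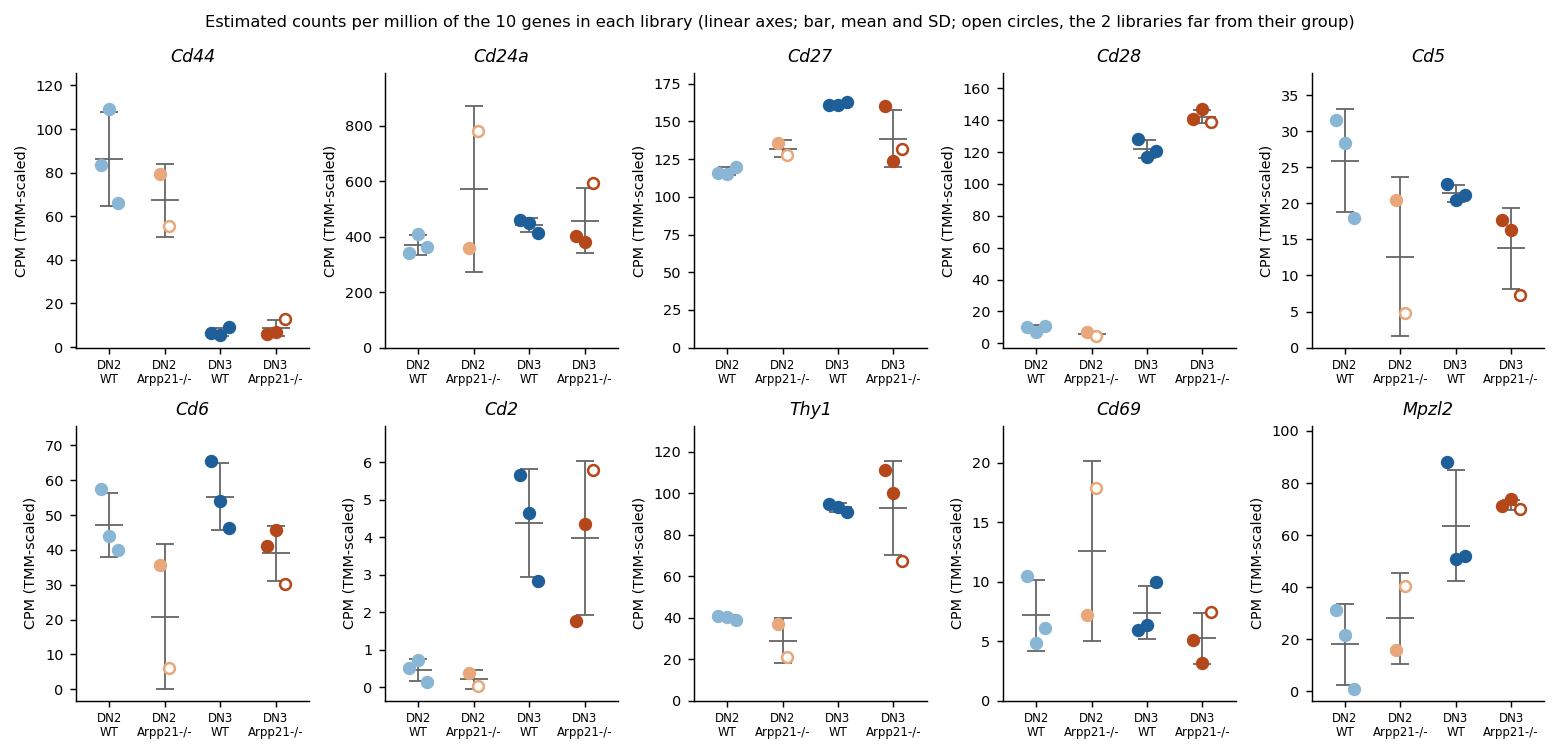
Scaled CPM (linear axes) of the 10 genes in each of the 11 libraries by stage and genotype, with the mean and SD of each group. *Cd28* lies at 4.78 to 10.5 CPM in the DN2 libraries and at 117 to 147 CPM in the DN3 libraries of both genotypes, and *Cd44* shows the opposite order, while the open circles (DN2 Arpp21-/- replicate 2 and DN3 Arpp21-/- replicate 3) are often the farthest from their group.

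*Cd28* (GRCm38 chromosome 1, 60716800 to 60773359, plus strand) encodes the receptor for CD80 and CD86 on antigen-presenting cells. It was at 10.4, 6.73 and 10.5 CPM in DN2 WT and at 128, 117 and 121 CPM in DN3 WT. The stages were far apart in each genotype and no library crossed over. *Cd28* was thus 13.2-fold higher in DN3 than in DN2 WT thymocytes, a log2 fold change of 3.72 (SE 0.277, edgeR adjusted p = 0.000133), and it was called under each of the 23 alternatives run, with log2 fold changes of 3.50 to 3.86.

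In Arpp21-/- thymocytes *Cd28* stood at 6.76 and 4.78 CPM in DN2 and at 141, 147 and 139 CPM in DN3. All 3 DN3 Arpp21-/- libraries were above the DN3 WT range, by a narrow margin, and in DN2 replicate 1 lay just inside the range of the WT libraries and replicate 2 below it. The log2 differences from WT were 0.23 (SE 0.248, edgeR adjusted p = 1.00) in DN3 and -0.68 (SE 0.286, edgeR adjusted p = 0.337) in DN2. Without the libraries that stood apart they were 0.24 and -0.43. On the TPM scale the DN3 groups overlapped, at 45.1, 40.6 and 45.7 TPM in WT and 52.4, 51.2 and 30.9 TPM in Arpp21-/-. The stage difference was 0.90 larger on the log2 scale in Arpp21-/- than in WT (SE 0.378), which did not pass (edgeR adjusted p = 0.964).

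*Cd27* (chromosome 6, 125232622 to 125237010, minus strand) encodes the tumour necrosis factor receptor family member that binds CD70. Relative to their mean its CPM levels were the tightest of the 10 genes in WT, at 116, 115 and 120 CPM in DN2 and 161, 161 and 163 CPM in DN3. In TPM *Cd24a* was tighter, at 305 ± 10.6 (SD, n = 3) in DN2 WT and 396 ± 15.5 (SD, n = 3) in DN3 WT. *Cd27* was at 125 ± 10.8 TPM (SD, n = 3) in DN2 WT and 195 ± 10.4 TPM (SD, n = 3) in DN3 WT. DN3 WT libraries all exceeded DN2 WT libraries, but the log2 difference of 0.47 (SE 0.199) did not pass with all 11 libraries in the fit (edgeR adjusted p = 0.331). It passed in 4 of the 23 alternatives, among them the fit without the libraries that stood apart (edgeR adjusted p = 0.0182).

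Arpp21-/- libraries held *Cd27* at 136 and 128 CPM in DN2, both above the WT range, and at 160, 124 and 132 CPM in DN3, all below it. DN3 Arpp21-/- replicate 1 was only marginally below the lowest WT library. Neither difference passed, at a log2 value of 0.17 (SE 0.222, edgeR adjusted p = 0.668) in DN2 and -0.22 (SE 0.199, edgeR adjusted p = 1.00) in DN3. They were 0.24 and -0.19 without the libraries that stood apart. On the TPM scale the direction in DN2 was not kept, since replicate 2 was at 52.2 TPM against 114 to 135 TPM in WT and replicate 1 at 151 TPM.

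Arpp21 is known to favour uridine-rich sequence in 3′ UTRs, so uridine runs were counted in the 3′ UTR of each gene's most abundant coding transcript (GENCODE M21). A run of 6 or more uridines (UUUUUU, sense strand only) occurred in 6 of the 10 genes and in 52.1% of the 12627 tested genes with such a UTR. *Cd28* had the longest 3′ UTR of the 10, at 3574 bases, with 7 such runs and a longest run of 14, and 92.0% of the 1029 genes whose UTR was of like length held a run of at least 6. *Cd44* held 5 runs, *Mpzl2* 3, and *Cd24a*, *Cd27* and *Cd69* held 1 each. *Cd5*, *Cd6*, *Cd2* and *Thy1* held none in these transcripts. Uridine made up 33.1% of the *Cd28* UTR and 21.9% of that of *Cd27*, where the medians of genes of like length were 29.9% and 28.6%. The longest runs of *Cd28* (chr1:60771588-60771617, plus strand) and *Cd27* (chr6:125232813-125232842, minus strand) are shown. Their DN3 Arpp21-/- libraries all lay on 1 side of WT in CPM, in opposite directions, but overlapped WT in TPM. *Cd5* and *Cd6* were below WT in all DN3 Arpp21-/- libraries on both scales. Their longest runs were 5 and 3, so no window is shown for them. The window of *Cd24a* (chr10:43583775-43583804, plus strand) is shown because this gene is the most abundant of the 10. Each window of 30 bases is read 5′ to 3′ in GRCm38, with the run in capitals. A match is a description of letters and not a binding site.
Cd28: auugugcuuuggUUUUUUUUUUUUUUaaug
Cd27: uaaaaauaauaaUUUUUUUUaaaaaaaugg
Cd24a: uucuguacauacUUUUUUUUUUUUUaagag

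*Cd5* and *Cd6* lie near each other on chromosome 19 (10717116 to 10739002 and 10789341 to 10830058, both on the minus strand) and encode related receptors that restrain antigen receptor signals. *Cd5* was at 31.5, 28.3 and 17.9 CPM in DN2 WT and at 22.7, 20.4 and 21.1 CPM in DN3 WT. The stages overlapped, at a log2 difference of -0.28 (SE 0.510, edgeR adjusted p = 0.997). *Cd6* was at 57.6, 44.0 and 39.9 CPM in DN2 WT and at 65.4, 54.0 and 46.3 CPM in DN3 WT, again overlapping, with a log2 difference of 0.23 (SE 0.508, edgeR adjusted p = 1.00).

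In Arpp21-/- libraries both receptors were at the low end or below WT. *Cd5* was at 20.4 and 4.84 CPM in DN2 and at 17.7, 16.3 and 7.34 CPM in DN3, where all 3 libraries were below the WT range. *Cd6* was at 35.6 and 6.15 CPM in DN2 and at 41.2, 45.6 and 30.2 CPM in DN3, below WT in every Arpp21-/- library of both stages. The lowest value of both genes and both stages came from the library that stood apart. *Cd5* had log2 differences of -0.63 (SE 0.513, edgeR adjusted p = 1.00) in DN3 and -1.04 (SE 0.589, edgeR adjusted p = 0.415) in DN2. For *Cd6* they were -0.50 (SE 0.509, edgeR adjusted p = 1.00) in DN3 and -1.18 (SE 0.590, edgeR adjusted p = 0.369) in DN2. Without the libraries that stood apart the differences of *Cd5* shrank to -0.34 in DN3 and -0.32 in DN2 and those of *Cd6* to -0.35 and -0.38, none of them called. In DN2 this leaves 1 Arpp21-/- library, whose spread is assumed to be that of the other groups.

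*Cd2* (chromosome 3, 101275899 to 101287939, minus strand), whose product binds CD48 in the mouse, was the least abundant of the 10 in DN2. DN2 WT libraries held 0.523, 0.727 and 0.153 CPM, resting on 12, 16 and 4 estimated counts, and DN3 WT libraries 5.66, 4.65 and 2.83 CPM. Every DN3 WT library was above every DN2 WT library, and the log2 difference was 3.22 (SE 0.890), which narrowly missed the threshold (edgeR adjusted p = 0.0827). It passed in 8 of 22 alternatives, among them the fit without the libraries that stood apart (edgeR adjusted p = 0.0110). Arpp21-/- libraries held 0.393 and 0.0267 CPM in DN2, the latter from a single count, and 1.76, 4.36 and 5.81 CPM in DN3. The log2 differences from WT were -0.14 (SE 0.804, edgeR adjusted p = 1.00) in DN3 and -1.19 (SE 1.02, edgeR adjusted p = 0.564) in DN2, and the groups overlapped in both stages. Leaving out the libraries that stood apart gave -0.52 and -0.21, and leaving out single libraries moved the DN2 value between -3.88 and -0.22.

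*Thy1* (chromosome 9, 44043384 to 44048579, plus strand), the classic pan-T lineage marker of the mouse, was at 41.0, 40.1 and 38.7 CPM in DN2 WT and 95.0, 93.6 and 90.9 CPM in DN3 WT. It was 2.33-fold higher in DN3, a log2 fold change of 1.22 (SE 0.279, edgeR adjusted p = 0.0375). This call was close to the threshold and held in 9 of 23 alternatives. Leaving out any 1 of the 6 WT libraries ended it (edgeR adjusted p = 0.112 to 0.134), as did leaving out DN3 Arpp21-/- replicate 1 or 2, while the log2 fold change stayed between 1.20 and 1.39. Without the libraries that stood apart the edgeR adjusted p was 9.52e-05.

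Arpp21-/- libraries held *Thy1* at 36.7 and 21.2 CPM in DN2, both below WT, and at 111, 99.9 and 67.3 CPM in DN3, with replicates 1 and 2 above WT and replicate 3 below it. The log2 differences were -0.47 (SE 0.312, edgeR adjusted p = 0.484) in DN2 and -0.01 (SE 0.275, edgeR adjusted p = 1.00) in DN3, and without the libraries that stood apart they were -0.10 and 0.17.

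*Cd24a* (chromosome 10, 43578284 to 43584265, plus strand), encoding the heat-stable antigen that is high on immature thymocytes, was the most abundant of the 10 genes in TPM in all 4 groups. DN2 WT libraries were at 340, 410 and 362 CPM and DN3 WT libraries at 460, 451 and 414 CPM, adjacent ranges with a log2 difference of 0.25 (SE 0.308, edgeR adjusted p = 0.941). DN2 Arpp21-/- libraries were at 359 and 782 CPM and DN3 Arpp21-/- libraries at 402, 380 and 593 CPM. The library that stood apart was the highest of its group in each stage, whereas in TPM it was the lowest of its group, at 236 TPM in DN2 and 321 TPM in DN3. The log2 differences from WT of 0.62 (SE 0.341, edgeR adjusted p = 0.401) in DN2 and 0.05 (SE 0.308, edgeR adjusted p = 1.00) in DN3 turned to -0.03 and -0.18 without these libraries.

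*Cd44* (chromosome 2, 102811141 to 102901665, minus strand) was at 83.6, 109 and 66.2 CPM in DN2 WT and at 6.62, 5.37 and 9.11 CPM in DN3 WT, 12.3-fold lower in DN3, so the libraries followed the gate they were sorted by. Arpp21-/- libraries held 79.2 and 55.6 CPM in DN2 and 6.10, 7.08 and 13.1 CPM in DN3. The genotypes overlapped in both stages, with log2 differences of -0.36 (SE 0.408, edgeR adjusted p = 0.641) in DN2 and 0.31 (SE 0.367, edgeR adjusted p = 1.00) in DN3. Without the libraries that stood apart both were -0.10.

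*Mpzl2* (chromosome 9, 45039799 to 45054015, plus strand), encoding the thymic adhesion molecule EVA-1 and overlapped on the other strand by Gm48840, which the files do not quantify, was the most variable of the 10 in DN2 WT. Its levels there were 31.4, 21.8 and 0.843 CPM, the last from 22 estimated counts against 722 and 480 in the others. In DN3 WT they were 88.2, 50.8 and 51.8 CPM, above every DN2 WT library. The log2 difference of 1.82 (SE 0.885) did not pass (edgeR adjusted p = 0.433), and without DN2 WT replicate 3 it was 1.26. Arpp21-/- libraries held 15.7 and 40.3 CPM in DN2 and 71.0, 73.7 and 70.1 CPM in DN3, inside the WT range in DN3. The log2 differences from WT were 0.64 (SE 0.950, edgeR adjusted p = 0.712) in DN2 and 0.17 (SE 0.857, edgeR adjusted p = 1.00) in DN3. The DN2 value turned to -0.17 without the libraries that stood apart, and that in DN3 was 0.19.

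*Cd69* (chromosome 6, 129267325 to 129275436, minus strand), whose product keeps the egress receptor S1PR1 off the surface of activated cells, was low throughout. It was at 10.5, 4.86 and 6.13 CPM in DN2 WT and at 5.93, 6.31 and 9.95 CPM in DN3 WT, fully overlapping, with a log2 difference of 0.05 (SE 0.492, edgeR adjusted p = 1.00). Arpp21-/- libraries held 7.19 and 17.9 CPM in DN2 and 5.07, 3.16 and 7.42 CPM in DN3. The log2 differences from WT were 0.81 (SE 0.542, edgeR adjusted p = 0.484) in DN2 and -0.51 (SE 0.496, edgeR adjusted p = 1.00) in DN3, and without the libraries that stood apart 0.03 and -0.85.

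**Figure D2:**
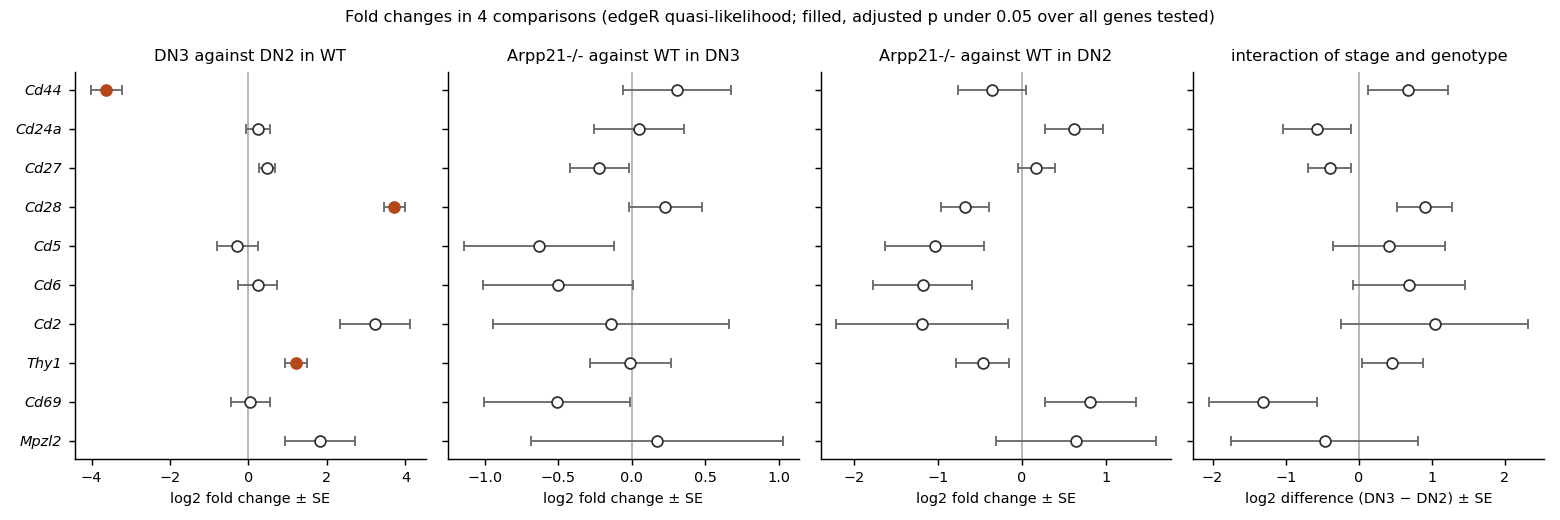
Log2 fold changes with their SE for the 10 genes in 4 comparisons (edgeR), each panel with its own linear axis and filled points for an adjusted p under 0.05 over 13780 genes. *Cd28* at 3.72, *Thy1* at 1.22 and *Cd44* at -3.62 are filled in the stage comparison, and no point is filled in the genotype comparisons or the interaction.

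Over the 10 genes as a group, the comparison of Arpp21-/- with WT in DN3 gave log2 differences of -0.63 to 0.31, with 4 above and 6 below 0. The edgeR test called 0 of them, 0 had an unadjusted p under 0.05, and DESeq2 and limma called 0. Of all 13780 genes edgeR called 1 (0.00726%). The Arpp21-/- libraries were all higher than WT in 1 of the 10 (*Cd28*), where 4.97% of all genes were, and all lower in 3 (*Cd27*, *Cd5* and *Cd6*), where 5.57% of all genes were. In TPM 0 were all higher and 4 were all lower (*Cd24a*, *Cd5*, *Cd6* and *Cd69*), where 2.44% and 8.32% of all genes were, so that *Cd5* and *Cd6* alone were lower on both scales. The median absolute log2 difference was 0.22 over the 10 genes and 0.28 over all genes.

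In DN2 the log2 differences ranged from -1.19 to 0.81, again with 4 above and 6 below 0. The edgeR test called 0 of the 10, as did DESeq2 and limma, and among the 10 *Cd28* alone had an unadjusted p under 0.05 (0.0395). Of all genes edgeR called 0%, with 2020 genes at an unadjusted p under 0.05, and DESeq2 called 38 genes. Both Arpp21-/- libraries were above all WT libraries in 1 of the 10 (*Cd27*), where 7.52% of all genes were, and below in 2 (*Cd6* and *Thy1*), where 8.28% of all genes were. With 2 Arpp21-/- libraries, 1 decides the outcome. Without replicate 1, so that the library that stood apart was the sole Arpp21-/- library, edgeR called 6 of the 10 and 6777 genes in all, and without replicate 2 it called none of the 10.

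The interaction, the stage difference in Arpp21-/- minus that in WT, ranged from -1.31 for *Cd69* to 1.04 for *Cd2*, which were at -0.88 and -0.30 without the libraries that stood apart. The edgeR, DESeq2 and limma tests called 0 of the 10, of which *Cd28* alone had an unadjusted edgeR p under 0.05 (0.0379). Of all genes edgeR called 0%, with 373 genes at an unadjusted p under 0.05, and DESeq2 called 10 genes.

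Library by library, DN2 Arpp21-/- replicate 1 had 7 of the 10 genes inside the WT range, 1 above and 2 below. Of all genes compared, 18.1% lay above and 17.8% below in that library. DN2 Arpp21-/- replicate 2 had 0 inside, 4 above and 6 below, where 38.7% and 40.9% of all genes lay above and below. The 3 DN3 Arpp21-/- libraries had 2, 3 and 2 genes inside the WT range. Above it lay 2, 2 and 4 of the 10, and 29.0%, 24.8% and 37.4% of all genes. Below it lay 6, 5 and 4 of the 10, and 22.8%, 25.9% and 43.0% of all genes. The farthest departures were those of DN2 Arpp21-/- replicate 2, at log2 ratios to the WT mean of -2.94 for *Cd6* and -2.42 for *Cd5*. *Cd2*, at 1 count in that library, was under the floor of 3 counts, so its ratio cannot be read. In the same library *Cd69* stood at 1.32 and *Mpzl2* at 1.16, and *Cd24a* was also above its WT range.

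**Figure D3:**
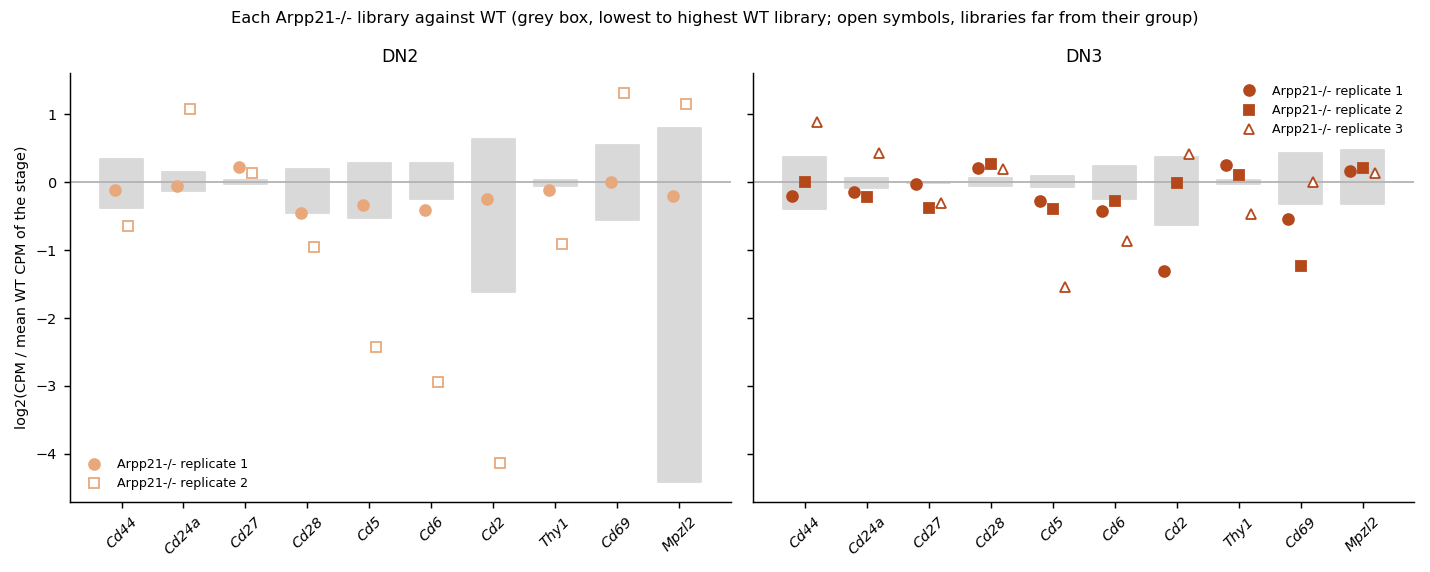
Log2 ratio of each Arpp21-/- library's CPM to the mean of the WT libraries of its stage (DN2 left, DN3 right), with grey boxes from the lowest to the highest WT library and open symbols for the libraries that stood apart. DN2 Arpp21-/- replicate 2 lies outside every box, with *Cd6* at -2.94 and *Cd69* at 1.32 and *Cd2* placed by 1 count, and in DN3 *Cd28* lies above its box in all 3 libraries, at 0.20 to 0.27.

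Set beside each other per length, the order of the 10 genes in DN2 WT by mean TPM was *Cd24a* (305), *Cd27* (125), *Thy1* (57.3), *Cd44* (35.8), *Cd6* (23.7), *Cd5* (18.2), *Mpzl2* (8.76), *Cd69* (5.33), *Cd28* (3.02) and *Cd2* (0.638). The ranges of neighbours overlapped between *Cd44* and *Cd6*, *Cd6* and *Cd5*, *Cd5* and *Mpzl2*, and *Mpzl2* and *Cd69*, and were separate elsewhere. In DN3 WT the first 3 places were the same, at 396, 195 and 150 TPM, whereas *Cd28* moved from the ninth to the fourth place at 43.8 TPM and *Cd44* from the fourth to the last at 3.27 TPM. Between them came *Mpzl2* (27.8 to 51.0), *Cd6* (30.1), *Cd5* (16.5), *Cd69* (6.69) and *Cd2* (6.58). Neighbours overlapped between *Cd28* and *Mpzl2*, *Mpzl2* and *Cd6*, and *Cd69* and *Cd2*. In Arpp21-/- the order was that of WT in DN2, and in DN3 it differed from WT in the exchange of *Cd69* and *Cd2*, whose ranges overlapped. With mean log2(TPM + 1) in place of mean TPM all 10 kept their place in both WT groups and in DN3 Arpp21-/-, and 7 of 10 in DN2 Arpp21-/-. With the libraries that stood apart left out, 8 of 10 kept their place in DN3 Arpp21-/-, where *Thy1* (173 TPM) and *Cd27* (169 TPM) changed places with overlapping ranges.

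**Figure D4:**
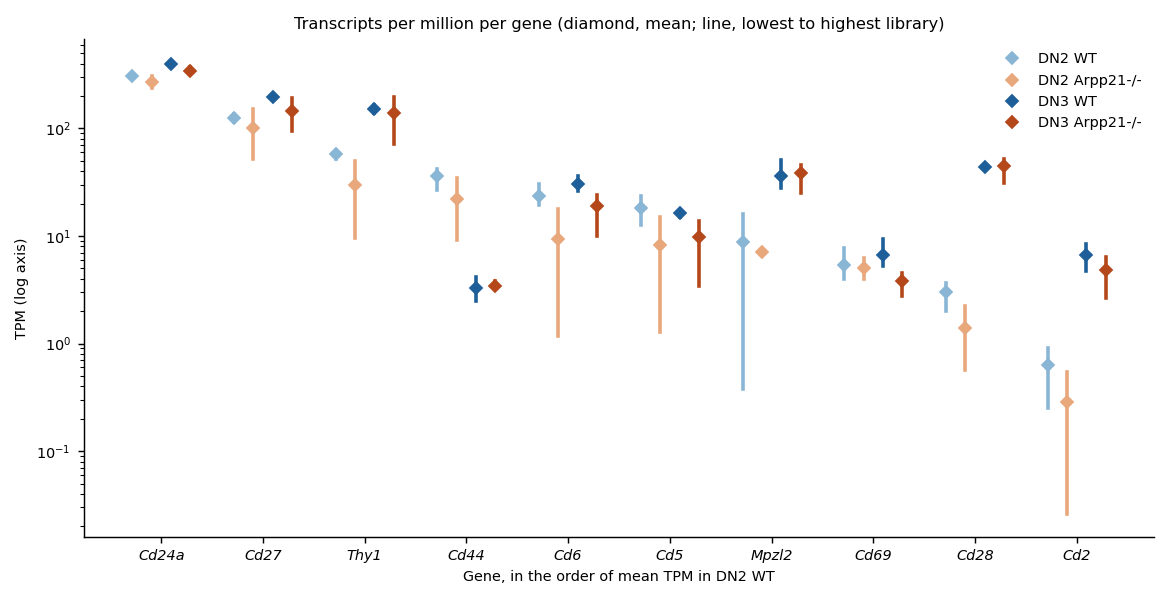
TPM on a log axis for the 10 genes in the 4 groups, in the order of DN2 WT, with diamonds for the mean and lines from the lowest to the highest library. *Cd24a* leads in every group at 271 to 396 TPM, and *Cd28* and *Cd44* exchange the low and middle of the order between DN2 and DN3.

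At the level of transcripts, a single isoform carried most of the TPM in every WT library in 8 of the genes. *Thy1* divided its TPM, and the few counts of *Cd2* in DN2 WT went to different transcripts in different libraries. Cd44-203, with a coding length of 1095 bases, held 74.3% ± 3.20 (SD, n = 3) of *Cd44* TPM in DN2 WT and 74.0% ± 9.87 (SD, n = 3) in DN3 WT, and the longer Cd44-207, coding 1731 bases, held 25.0% and 18.0%. The level of *Cd44* differed between the stages, as set by the gate, while the share of its leading isoform did not move beyond its spread. In DN3 WT that share was 85.3%, 67.6% and 68.9%, from 145, 126 and 206 estimated counts of the gene. A change in the share would be hard to see there. For *Cd6* the full-length Cd6-203 held 67.8% in DN2 WT and 68.1% in DN3 WT, and an isoform with a coding sequence of 1878 bases, against 1995 bases, held 20.2% and 17.5%. *Thy1* was divided between Thy1-201, at 46.3% in DN2 WT and 44.2% in DN3 WT, and the non-coding Thy1-203 of 449 bases, at 38.0% and 35.9%. The split was not stable. In the DN2 WT libraries Thy1-201 held 61.2%, 38.5% and 39.0% and Thy1-203 held 12.4%, 46.6% and 55.0%, so the leading transcript differed between libraries. These shares are apportioned by kallisto among overlapping transcripts and carry that uncertainty.

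Beyond the 10 genes, 4 lists of related genes were followed. Of 19 other surface proteins of DN staging and beta selection, all tested, 4 rose and 1 fell from DN2 to DN3 in WT, beside 1.86% and 2.22% of all genes. The risers were *Ptcra*, the pre-T cell receptor alpha chain (log2 fold change 7.76), and the CD3 chains *Cd3d* (5.64), *Cd3e* (3.16) and *Cd3g* (2.33), with edgeR adjusted p from 0.000393 to 0.0135. *Cd34*, a progenitor marker, fell by 7.51 on the log2 scale (edgeR adjusted p = 0.000467). The median log2 difference of the list was 0.27, against 0.01 over all genes.

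Of 7 ligands and binding partners of the 10 genes, 5 were tested, and *Cd70* and *Cd86* were too low to test. Of the 5, 0 rose and 1 fell in DN3, beside 1.86% and 2.22% of all genes. *Siglecg*, a receptor for CD24, was lower in DN3 (edgeR adjusted p = 0.0255), at 2.87, 4.45 and 2.87 CPM in DN2 WT and 0, 0.128 and 0 CPM in DN3 WT, where it is at or under the floor of 3 counts. *Cd48*, the ligand of CD2, was not called, at a mean of 385 CPM in DN2 WT and 111 CPM in DN3 WT.

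Of 19 other costimulatory and coinhibitory receptors, 16 were tested, of which 3 rose and 2 fell in DN3, beside 1.86% and 2.22% of all genes. *Ctla4*, which competes with CD28 for its ligands, rose by a log2 fold change of 3.89 (SE 0.890, edgeR adjusted p = 0.0375), from 10.7, 0.636 and 1.42 CPM to 73.3, 54.5 and 61.3 CPM. *Slamf6* rose by 1.61 (edgeR adjusted p = 0.0113), and *Btla*, at 0.0435, 0 and 0 CPM in DN2 WT, was at 1.64, 2.39 and 1.41 CPM in DN3 WT (edgeR adjusted p = 0.00665). *Cd244a* fell by 6.05 and *Cd160* fell by 1.85 on the log2 scale (edgeR adjusted p = 0.000501 and 0.0280). The median of the 16 was 0.90, against 0.01 over all genes.

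Of 23 intracellular partners, such as kinases and adaptors that act below these receptors, none was called between the stages by edgeR. An unadjusted p under 0.05 was found for 3 of the 23, where 13.5% of all genes had one, so the list did not stand out. The lowest p belonged to *Lck*, the kinase that CD4, CD8 and CD28 signalling relies on, at 1145 CPM on average in DN2 WT and 2294 CPM in DN3 WT (log2 difference 1.00, edgeR adjusted p = 0.0858). *Cblb* followed at 1.59 and *Ubash3b* at -2.42 (edgeR adjusted p = 0.154 and 0.271).

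Between the genotypes edgeR called 0 genes of the 4 lists in DN3, in DN2 and in the interaction. Over their 63 tested genes, 1 had an unadjusted p under 0.05 in DN3, 6 in DN2 and 3 in the interaction, where the shares of all genes were 1.55%, 14.7% and 2.71%. In DN3 the lowest p of the staging list belonged to *Cd4*, *Cd34* and *Cd8a*, at means of no more than 5.35 CPM in either genotype (edgeR adjusted p = 1.00 for each). The ligands with the lowest p, *Siglecg*, *Cd80* and *S1pr1*, were at means of 0.0426 to 0.555 CPM in DN3, too low to read. Among the other receptors *Cd96*, a receptor of the immunoglobulin superfamily, was at a mean of 130 CPM in WT and 74.7 CPM in Arpp21-/-, a log2 difference of -0.80 (edgeR adjusted p = 1.00), followed by *Icos* (-0.83) and *Tnfrsf9* (-1.13). Among the intracellular partners the log2 differences were -0.35 for *Cd2bp2*, which binds the tail of CD2, -0.88 for *Ubash3b* and -0.45 for *Cblb*. *Cd2bp2* was at 69.1, 73.6 and 54.2 CPM in Arpp21-/-, below 79.0 to 93.1 CPM in WT. In Arpp21-/- replicates 1 and 2 *Ubash3b* was at 2.28 and 2.72 CPM, inside the WT range of 2.14 to 3.85 CPM. *Cblb* was at 255 and 208 CPM there, against 253 to 273 CPM in WT. The library that stood apart held *Ubash3b* at 0.242 CPM, at the floor, and *Cblb* at 117 CPM.

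In DN2 the genes with the lowest p in the staging list were *Flt3*, *Ptcra* and *Cd3e*. *Flt3*, a progenitor receptor, was at 3.18, 1.23 and 4.06 CPM in WT and at 0 and 0.134 CPM in Arpp21-/- (edgeR adjusted p = 0.336). *Ptcra* and *Cd3e* had log2 differences of 1.96 and -0.77. In Arpp21-/- replicate 1 both lay inside the WT range. *Ptcra* was at 2.52 CPM there (WT 1.000 to 2.96 CPM) and *Cd3e* at 125 CPM (WT 97.8 to 183 CPM). The library that stood apart held them at 11.7 and 45.8 CPM. *Cd48* followed among the ligands at 384, 431 and 340 CPM in the WT libraries, against 340 and 1497 CPM without Arpp21 (log2 difference 1.26, edgeR adjusted p = 0.336), the higher value being that of the library that stood apart, with *S1pr1* and *Cd80* at means of no more than 2.48 CPM. Among the other receptors *Tnfrsf18* was at 26.9 CPM in Arpp21-/- replicate 1, inside the WT range of 19.2 to 27.2 CPM, and at 71.3 CPM in the library that stood apart. *Cd84* was at 39.2 and 37.0 CPM in Arpp21-/-, below 46.6 to 62.6 CPM in WT, and *Mpzl1* was near the floor, at 0 CPM in WT replicates 1 and 2 and no more than 2.49 CPM in any DN2 library. Among the intracellular partners the log2 differences were 1.83 for *Siva1*, -0.57 for *Cd2bp2* and 0.64 for *Lck*. *Lck* was at 1270 CPM in replicate 1 and 2311 CPM in the library that stood apart, against 1122 to 1181 CPM in WT. *Siva1*, whose product binds CD27, averaged 147 ± 18.8 CPM (SD, n = 3) in the WT libraries, against 525 ± 544 CPM (SD, n = 2) without Arpp21, with 140 CPM in replicate 1 and 910 CPM in the library that stood apart.

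For the interaction the lowest p in the 4 lists belonged to *Flt3*, *Ptcra* and *Cd34*, to *Cd48*, *Siglecg* and *S1pr1*, to *Slamf1*, *Cd84* and *Cd160*, and to *Traf2*, *Siva1* and *Traf5*, all at an edgeR adjusted p of 0.964. *Slamf1* had a log2 value of 2.45, from means of 2.11 and 4.27 CPM in DN2 and DN3 WT and of 0.712 and 7.83 CPM in DN2 and DN3 Arpp21-/-. *Cd84* had a value of 0.76, from means of 54.3 and 45.5 CPM in WT and of 38.1 and 54.2 CPM in Arpp21-/-.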

How the data were processed

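RNA of sorted DN2 and DN3 thymocytes was made into cDNA with SmartSeq V4 and Nextera, a kit without strand information, and sequenced as 150 base pairs paired-end. Per the labels and methods, the authors trimmed the reads and quantified them with kallisto 0.46 against Ensembl transcripts of GRCm38. The deposited files hold, per library and transcript, the estimated counts that kallisto assigned for the authors, the TPM values that kallisto derived from them, and an effective transcript length, a further deposited value of kallisto. No tool for differential expression is given in the sources used here.

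Estimated counts were summed per gene through GENCODE M21 (GRCm38). Of 119414 transcripts, 116728 matched a gene by stable identifier, and the rest held 0.933% to 1.069% of counts. Sums were rounded and tested with edgeR 4.0.16 (TMM scaling, filterByExpr with min.count of 10 and min.total.count of 15, glmQLFit and glmQLFTest, 4 group means, all 11 libraries), two-sided, with Benjamini-Hochberg adjustment over 13780 genes and a threshold of 0.05. An SE was obtained as the size of the log2 fold change over the square root of its F statistic. UTR lengths counted as alike when their ratio was at most 1.25 either way. A floor of 3 counts per library, 0.0802 to 0.242 CPM, was used for genes near 0, and it covers counting error only. The script was tested on simulated data whose spread was set well below that of these libraries, so this test does not measure its power here.

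The 10 genes, the 4 lists and the marker lists were chosen with earlier results of these data known. Named are the 10 genes, *Arpp21*, every listed gene called in a comparison and, where a list had none, its 3 genes with the lowest unadjusted p. One listed item is not reported here and is left out of the counts. Examples set out for single libraries, UTR windows and isoforms were picked with their values known. Alternatives included DESeq2 1.42.0, its size factors, other filters, an offset for transcript length, limma 3.58.1 (TPM with a pseudocount of 1 or 0.1, log2 scale, and counts with voom quality weights), the fit to the compared groups alone, a replicate block, and leaving out libraries. Replicate numbers were not used as pairs. R 4.3.3 and Python 3.11.15 were used.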

Additional observations from a re-analysis of the deposited data

Results flagged for a closer look

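*Cd27* and *Cd28* were singled out because their Arpp21-/- libraries fell on opposite sides of the WT mean in the 2 stages. For *Cd27* both DN2 Arpp21-/- libraries were above the DN2 WT mean and all 3 DN3 Arpp21-/- libraries below the DN3 WT mean, and the log2 difference from WT was lower in DN3 than in DN2 by a value of -0.40 (SE 0.298). For *Cd28* the order was the opposite, below WT in both DN2 libraries and above it in all 3 DN3 libraries, at 0.90 (SE 0.378). Neither difference passed the test of the interaction (edgeR adjusted p = 0.964 for each). Without the libraries that stood apart the values were -0.43 and 0.66, and in TPM the Arpp21-/- libraries lay on both sides of the WT mean for *Cd27* in DN2 and for *Cd28* in DN3.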

How the results depend on the processing

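Over 24 settings other than the one reported, 784 of 891 recomputed values kept their direction and their side of the threshold, or, for counts, stayed close. The calls of *Cd28* and *Cd44* between stages held in the 23 settings that gave them a value. The count of the 10 genes called between stages was 3 and became 5 with DESeq2, 6 with voom weights, 5 without the libraries that stood apart and 5 with the compared groups alone, and 2 to 4 on leaving out single libraries. Same-numbered libraries deviated together at r of 0.289, 0.0855 and 0.178 between the WT stages. As a hint from the data, each DN2 WT library correlated best with the DN3 WT library of its own number. Between the other groups r was -0.454 to 0.53. There too the own number was best, except for number 2 in 2 comparisons. These were DN3 WT with DN3 Arpp21-/- (r of -0.113) and DN2 with DN3 Arpp21-/- (r of -0.454). With 2 DN2 Arpp21-/- libraries, deviations from their group mean are equal and opposite. Comparisons with that group therefore give no hint of pairs. The labels do not say whether same-numbered libraries are pairs. With the replicate block the count was 2, and the log2 fold change of *Thy1* remained 1.22 but was not called (edgeR adjusted p = 0.0547). The block also ended that call with genotype and number together (edgeR adjusted p = 0.0935), and it made no call between genotypes. In DN2 between genotypes 0 to 6 of the 10 were called on leaving out single libraries, in DN3 0 to 0, and in the interaction 0 to 2. The upper counts came from leaving out DN2 Arpp21-/- replicate 1. Over all genes, 562 were called between stages, against 1192 with DESeq2, 2326 with voom weights, 2226 without the libraries that stood apart, 1946 with the compared groups alone, 216 with genotype and number as a block and 243 to 1080 on leaving out single libraries. Between genotypes in DN3 the 1 gene became 16 with DESeq2, 118 with voom weights, 5 without the libraries that stood apart and 2 on log2(TPM + 0.1), and 0 with the compared groups alone, with the block and on leaving out any of 9 of the 11 libraries. In DN2 and in the interaction 0 became 38 and 10 with DESeq2, and up to 6777 and 3664 without DN2 Arpp21-/- replicate 1.

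Several differences that were not called changed sign. Between stages, *Cd69* was at -0.0022 with the block and -0.23 to 0.43 on leaving out single libraries. Between genotypes in DN3 without the libraries that stood apart, *Cd44* was at -0.10, *Cd24a* at -0.18 and *Thy1* at 0.17. *Cd24a* was also at -0.22 on log2(TPM + 1) and log2(TPM + 0.1) and at -0.16 with voom weights, *Cd28* at -0.0034 and -0.0044 on these TPM scales, and *Cd2* at 0.01 with the block. *Thy1* was at 0.01 with DESeq2, with its size factors and with the compared groups alone, 0.02 with the length offset and 0.13 with voom weights. In DN2 on the TPM scales *Cd24a* was at -0.18 and -0.18, *Cd27* at -0.48 and -0.49 and *Cd69* at -0.03 and -0.03. Without the libraries that stood apart *Cd24a* was at -0.03 and *Mpzl2* at -0.17 in DN2. The interaction of *Cd27* was at 0.00086 on log2(TPM + 0.1). On leaving out single libraries the ranges in DN3 were -0.09 to 0.54 for *Cd44*, -0.18 to 0.17 for *Cd24a*, -0.52 to 0.21 for *Cd2* and -0.16 to 0.18 for *Thy1*, and in DN2 -0.03 to 1.07 for *Cd24a* and -0.18 to 1.31 for *Mpzl2*. The causes were not tested. *Cd2* in DN2 rested on 1 to 16 counts per library.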
